A study of Homo sapiens with 15 samples.

Results

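MIR155HG, MIR3142HG, MIR9-3HG, MIR17HG and MIR22HG are 5 long non-coding RNA genes whose transcripts hold the hairpins of microRNAs (miRNAs) known from inflammation. They were taken by symbol from a table of read counts for 60286 genes, and each symbol matched 1 row. MIR3142HG and MIR9-3HG had been picked for their pattern in these same data, so their levels against the control and between the bacterial species are given as a description without a test. The RNA came from THP-1 cells, a human monocytic leukemia line labelled as wild type, which had received bacterial extracellular vesicles (BEVs), the small membrane particles that bacteria shed. Control cells (NC) received PBS. Cells of the EUC and EPL groups received *E. coli* BEVs at 1 μg/ml of protein, isolated by ultracentrifugation (UC) or by precipitation with ϵ-poly-L-lysine (PL), and cells of the SUC and SPL groups received *S. aureus* BEVs at 10 μg/ml, isolated by UC or PL. Each of the 5 groups had 3 libraries, 15 in all, from 1 cell line, and species and dose changed together, so their effects cannot be told apart. The methods give 6 h of incubation, while the labels give Day 0.

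A host gene is transcribed into a long primary transcript. The nuclease Drosha cuts the miRNA hairpin out of it in the nucleus, Dicer trims the hairpin in the cytoplasm, and an Argonaute protein then carries the mature miRNA to messenger RNAs that pair with its seed, the short stretch near its 5′ end. A library of long RNA counts reads of the host transcript. The level of that transcript therefore describes the host gene and not the mature miRNA, which was not measured here. In myeloid cells miR-155 and miR-146a are both known to be induced through Toll-like receptors and NF-kappa B, and miR-155 is known to promote and miR-146a to restrain the inflammatory response.

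The mature miRNAs of the 5 host genes are shown because they tell which seeds each gene can supply. They are printed 5′ to 3′ with the seed (bases 2 to 8) in capitals, from RefSeq annotation of GRCh38.p14.
miR-155-5p: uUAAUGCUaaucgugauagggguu
miR-3142: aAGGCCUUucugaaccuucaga
miR-146a-5p: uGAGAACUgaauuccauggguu
miR-9-5p: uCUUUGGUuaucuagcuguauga
miR-17-5p: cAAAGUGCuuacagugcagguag
miR-18a-5p: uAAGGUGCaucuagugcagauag
miR-19a-3p: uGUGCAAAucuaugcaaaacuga
miR-20a-5p: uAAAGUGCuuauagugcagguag
miR-19b-3p: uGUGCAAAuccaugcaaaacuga
miR-92a-3p: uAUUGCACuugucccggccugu
miR-22-3p: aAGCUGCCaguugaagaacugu
MIR155HG holds miR-155. MIR3142HG holds both miR-3142 and miR-146a, MIR9-3HG holds 1 of the copies of miR-9, MIR22HG holds miR-22, and MIR17HG holds the 6 miRNAs of the miR-17-92 cluster. The sequences of miR-17-5p and miR-20a-5p share the seed AAAGUGC, and those of miR-19a-3p and miR-19b-3p share GUGCAAA. All the other seeds shown differ from each other.

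The host genes differ in how they carry their hairpins (coordinates are on hg38, from GENCODE release 44). MIR155HG (ENSG00000234883) lies at chr21:25561810-25575168 on the plus strand, with miR-155-5p in an exon of both of its annotated transcripts. MIR3142HG (ENSG00000253522) lies at chr5:160438594-160487426 on the plus strand, with miR-146a-5p in the last exon of both of its transcripts and miR-3142 in an intron. MIR9-3HG (ENSG00000255571) lies at chr15:89361579-89424983 on the plus strand, with 54 annotated transcripts, and miR-9-5p straddles the edge of an exon. MIR17HG (ENSG00000215417) lies at chr13:91347686-91397592 on the plus strand, and 3 of the 11 transcripts that span the cluster keep it in an exon. MIR22HG (ENSG00000186594) lies at chr17:1711447-1717174 on the minus strand, with miR-22-3p in an exon of 30 of its 32 transcripts. The map of the host genes shows these positions.

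**Figure D1:**
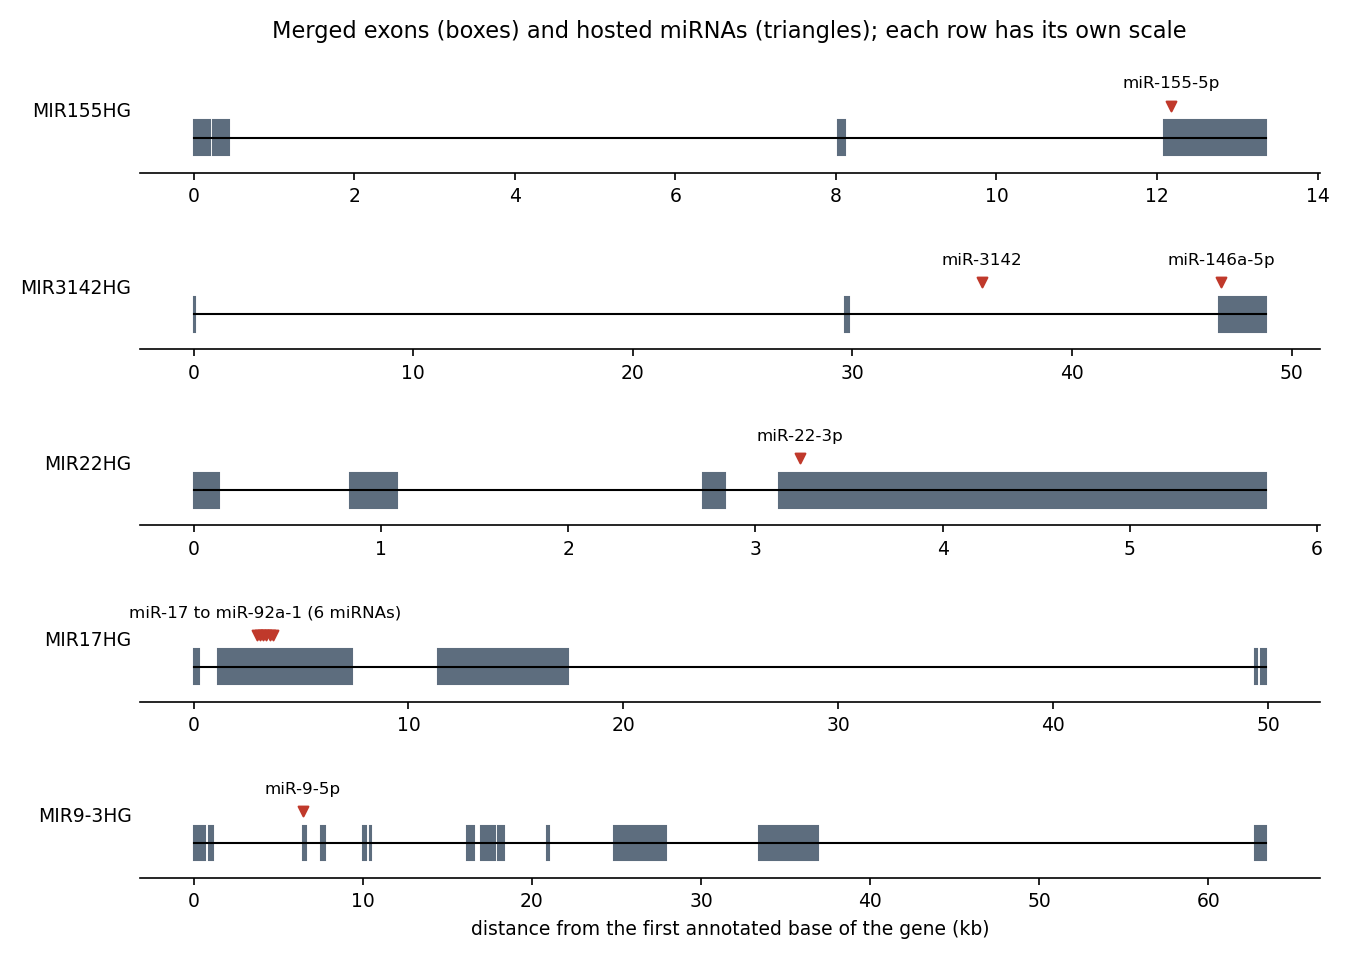
Merged exons (boxes) and mature miRNAs (marks) of the 5 host genes, plotted by distance from the host gene's start in kilobases, with a scale of its own for each gene. The mark of miR-3142 lies between exons, 35898 bases from the start of MIR3142HG, and the 6 marks of the miR-17-92 cluster lie together near the start of MIR17HG.

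The libraries held 14399421 to 16637345 counted reads (median 15831655), and 17198 genes had enough counts for the tests, all 5 host genes among them. Levels are CPM, read counts scaled to the same normalized library size in each library. Of 9 markers of monocytic cells, 8 were tested, and their group means lay between 50.2 and 1198 CPM, while CD68 had 18 reads in all. The markers of T cells, erythroid cells and epithelial cells had 1, 0 and 2 reads over all libraries. Among fibroblast markers COL1A1 was higher than in NC in each BEV group, where its means were 3.57, 4.52, 1.87 and 2.49 CPM in EUC, EPL, SUC and SPL against 0.746 CPM. COL1A2 had 1 read in all. PDGFRB was at 1.76 CPM in NC and at 0.755, 1.14, 1.13 and 0.989 CPM in EUC, EPL, SUC and SPL, which did not pass, and the sum of the 3 fibroblast markers was 2.15 to 3.01 CPM in NC libraries and 2.57 to 6.69 CPM in BEV libraries. The part of these marker levels in the results was not tested. In bulk RNA a change in the number of cells that transcribe a gene and a change in the RNA per cell cannot be told apart.

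**Figure D2:**
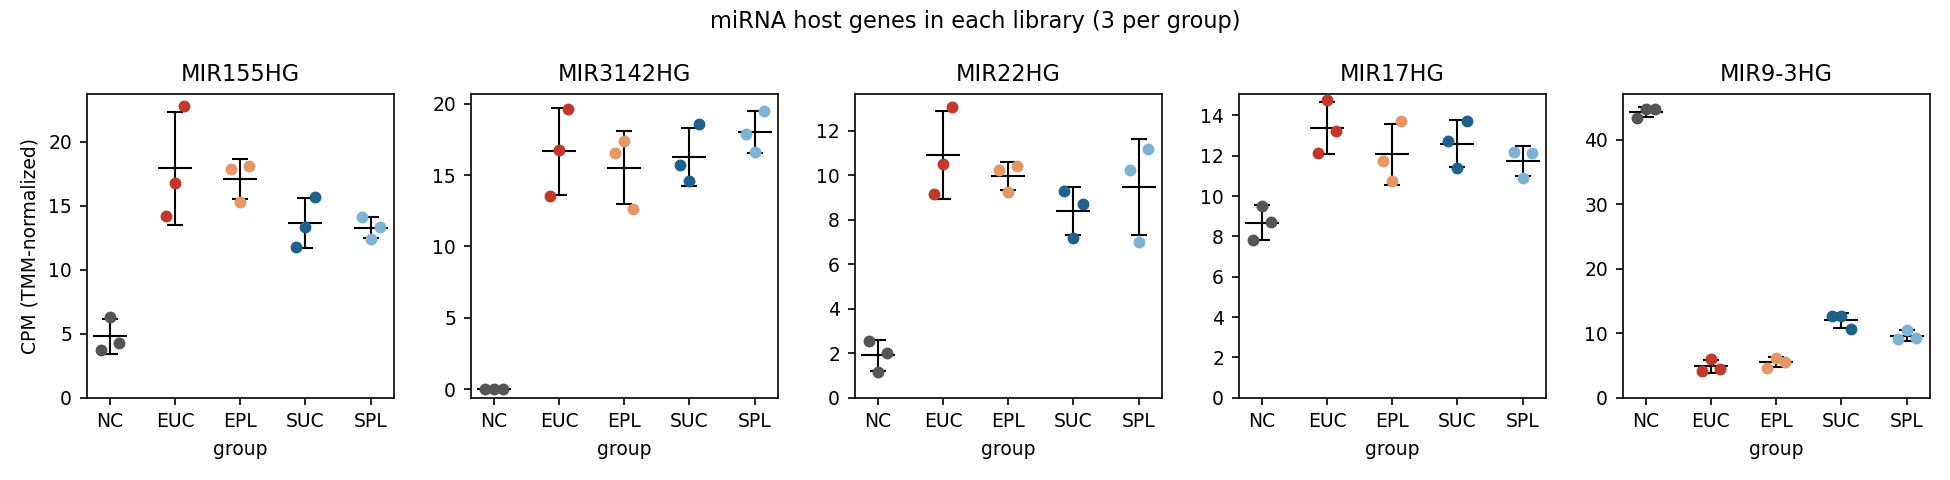
CPM of each host gene in each library (points) with the group mean and SD (lines), 3 libraries per group. In 4 of the panels the 12 BEV libraries lie above the 3 NC libraries, and in that of MIR9-3HG they lie below, with the *E. coli* BEV libraries at the bottom. Of all tested genes 17.5% lay above in this way and 16.1% below, and MIR3142HG and MIR9-3HG were picked for their pattern.

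MIR155HG, the host of miR-155, was 2.76-fold to 3.71-fold higher in the BEV groups than in control cells. Its levels were 3.78, 6.35 and 4.29 CPM in NC. They were 14.2, 16.8 and 22.8 CPM in EUC and 17.9, 15.3 and 18.1 CPM in EPL. They were 11.8, 13.4 and 15.7 CPM in SUC and 14.1, 12.4 and 13.4 CPM in SPL. Every BEV library lay above every NC library, as it did for 17.5% of all tested genes, and the widest spread was in EUC, where 1 library reached 22.8 CPM. The log2 fold change was 1.89 ± 0.195 (SE) in EUC (adjusted p = 4.81e-07, edgeR quasi-likelihood test, Benjamini-Hochberg adjusted) and 1.82 ± 0.196 in EPL (adjusted p = 8.14e-07, same test). In SUC it was 1.499 ± 0.198 (adjusted p = 1.37e-05) and in SPL 1.46 ± 0.198 (adjusted p = 1.57e-05, same test). These differences are larger than the spread between libraries.

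MIR22HG, the host of miR-22, rose more steeply from a lower level. It was at 2.56, 1.18 and 2.03 CPM in NC. It was at 9.17, 10.5 and 13.1 CPM in EUC and at 10.2, 9.24 and 10.4 CPM in EPL. It was at 9.29, 7.19 and 8.71 CPM in SUC and at 10.2, 7.02 and 11.2 CPM in SPL. The lowest BEV library stood well above the highest NC library, and the BEV groups overlapped each other. Every BEV library lay above every NC library for 17.5% of all tested genes. The gene was 5.70-fold higher in EUC (log2 fold change 2.51 ± 0.238 SE, adjusted p = 1.70e-07, edgeR) and 5.20-fold higher in EPL (2.38 ± 0.239, adjusted p = 3.73e-07). It was 4.38-fold higher in SUC (2.13 ± 0.242, adjusted p = 2.49e-06, edgeR) and 4.94-fold higher in SPL (2.30 ± 0.240, adjusted p = 7.48e-07).

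MIR17HG, the host of the miR-17-92 cluster, a group of miRNAs known from cell proliferation, moved the least. Its levels were 7.81, 9.53 and 8.70 CPM in NC. They were 12.2, 14.7 and 13.2 CPM in EUC and 11.7, 10.8 and 13.7 CPM in EPL. They were 12.7, 11.4 and 13.7 CPM in SUC and 12.2, 10.9 and 12.1 CPM in SPL. Every BEV library lay above every NC library, as for 17.5% of all tested genes, but the gap was small. The log2 fold change was 0.62 ± 0.128 in EUC (adjusted p = 0.000773, edgeR), 0.48 ± 0.128 in EPL (adjusted p = 0.00666), 0.54 ± 0.128 in SUC (adjusted p = 0.00372) and 0.43 ± 0.129 in SPL (adjusted p = 0.0147). It stayed below the 2-fold threshold in each group, and in SPL its adjusted p also missed 0.01. An annotated antisense gene (ENSG00000292285) overlaps 2639 bases, or 20.5%, of the merged exons of MIR17HG. The strand setting of the counting was not stated in the sources used. Reads of both genes cannot be told apart there.

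MIR3142HG, the host of miR-146a and miR-3142, had 0 reads in each of the 3 NC libraries. In BEV-stimulated cells it was at 13.5, 16.8 and 19.7 CPM in EUC and at 16.5, 17.4 and 12.6 CPM in EPL. It was at 15.7, 14.6 and 18.6 CPM in SUC and at 17.9, 16.6 and 19.5 CPM in SPL. The 4 BEV groups overlapped throughout, although the doses differed. A count of 0 allows up to 3 reads over the NC libraries, or 0.0607 CPM, and against that limit the level was at least 255-fold higher in EPL (727 reads), the smallest of these limits, and at least 295.9-fold higher in SPL (821 reads), with EUC and SUC between them. The limit covers counting error only. The log2 difference between *E. coli* and *S. aureus* BEVs was -0.09. Since the gene had been picked for its pattern, nothing further is read from these contrasts.

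MIR9-3HG was the host gene that was lower with BEVs. Its levels were 43.3, 44.8 and 44.7 CPM in NC. They were 4.16, 6.02 and 4.47 CPM in EUC and 4.66, 6.24 and 5.62 CPM in EPL. They were 12.7, 12.6 and 10.7 CPM in SUC and 9.07, 10.6 and 9.31 CPM in SPL. The control libraries lay close together and far above the rest. All 12 BEV libraries lay below the 3 NC libraries, as for 16.1% of tested genes, and all 6 *E. coli* BEV libraries lay below all 6 *S. aureus* BEV libraries, a pattern that 1.24% of tested genes showed and that belongs to the contrast the gene was picked on. The mean was 9.04-fold lower than in NC in EUC, 8.02-fold lower in EPL, 3.69-fold lower in SUC and 4.59-fold lower in SPL. Between the species the level was 2.07-fold lower with *E. coli* BEVs, a log2 difference of -1.05, or -0.9989 without the EPL1 library, given as a description only. In the order of levels from NC through SUC, SPL, EPL and EUC, only EPL and EUC overlapped as neighbours. SUC and SPL were apart by little, with a lowest SUC library at 10.69 CPM and a highest SPL library at 10.56 CPM.

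**Figure D3:**
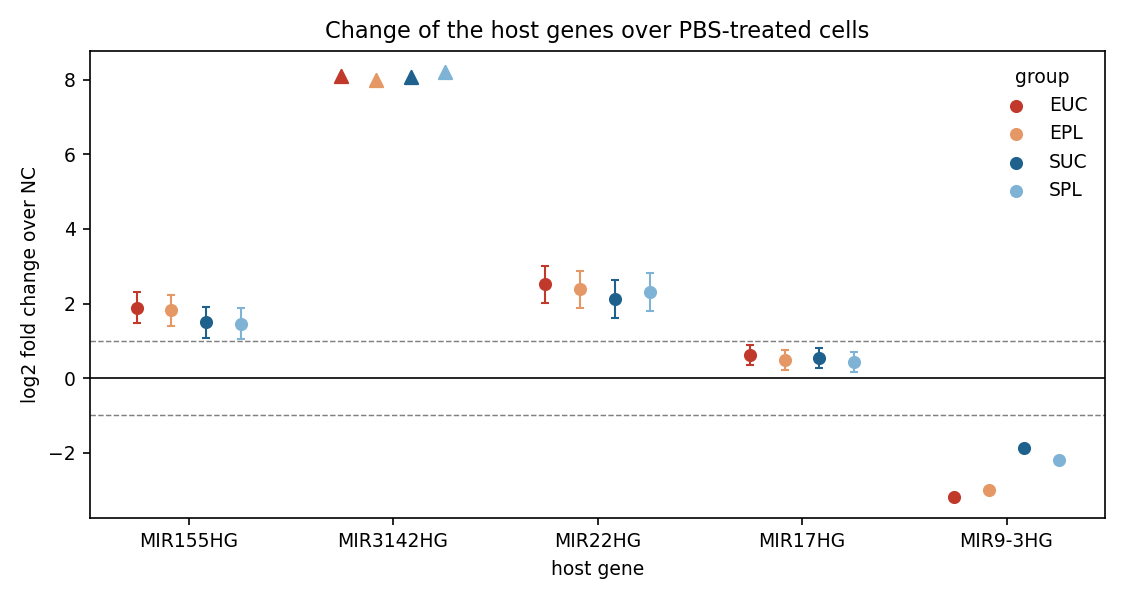
Log2 fold change of each host gene over NC in the 4 BEV groups, with 95% intervals where a test was made. Triangles for MIR3142HG are lower limits, and the dashed lines mark the 2-fold threshold, which MIR17HG did not reach in any group.

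Of the 3 host genes that were not picked on these data, MIR155HG and MIR22HG passed both thresholds (adjusted p of at most 0.01 and at least a 2-fold change) in each of the 4 comparisons with NC. In EUC, EPL, SUC and SPL, respectively, 9.43%, 9.38%, 6.82% and 7.76% of all tested genes passed as higher. As lower, where MIR9-3HG stood, 5.75%, 5.15%, 3.06% and 3.7% passed. With the picked genes the count was 4 of 5 in each comparison, beside 15.2%, 14.5%, 9.88% and 11.5% of all tested genes in either direction, and nothing is read from it. The 4 comparisons share the same NC libraries.

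No difference between the isolation methods was detected in the 5 host genes at this depth. MIR3142HG and MIR9-3HG were tested in the contrasts of the methods, since their pick had used averages over the methods. In edgeR's test of EPL against EUC 0 of 5 host genes passed, 0 had an unadjusted p under 0.05, and DESeq2 also called 0. Over all 17198 genes 0% passed there, with 604 at an unadjusted p under 0.05, and DESeq2 called 0. The log2 differences were -0.07 for MIR155HG (95% interval -0.44 to 0.30), -0.10 for MIR3142HG (-0.44 to 0.23) and -0.13 for MIR22HG (-0.55 to 0.29). They were -0.15 for MIR17HG (-0.41 to 0.12) and 0.17 for MIR9-3HG (-0.15 to 0.50).

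For SPL against SUC 0 of 5 host genes passed by edgeR or DESeq2, where 0.00581% of all tested genes passed. The log2 difference was -0.04 for MIR155HG (95% interval -0.42 to 0.35), 0.14 for MIR3142HG (-0.19 to 0.48), -0.10 for MIR17HG (-0.37 to 0.16) and 0.17 for MIR22HG (-0.26 to 0.60). MIR9-3HG was the 1 host gene with an unadjusted p under 0.05, at a log2 difference of -0.32 (-0.60 to -0.03), and it did not pass after adjustment (edgeR, adjusted p = 0.814). The difference of the isolation methods between the species was 0.49 for this gene (0.06 to 0.92, edgeR, adjusted p = 1). The same test gave -0.25 for MIR3142HG (-0.72 to 0.22) and -0.30 for MIR22HG (-0.91 to 0.30). For MIR155HG and MIR17HG it gave -0.03 (-0.57 to 0.50) and -0.04 (-0.42 to 0.33). None of the 5 passed in that test, with 1 of them at an unadjusted p under 0.05, and 0 were called by DESeq2. Over all genes 0% passed, 659 had an unadjusted p under 0.05, and DESeq2 called 3.

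Between the species 0.686% of all tested genes passed, 0.663% as higher and 0.0233% as lower with *E. coli* BEVs. MIR155HG was 1.30-fold higher with *E. coli* BEVs at 1 μg/ml than with *S. aureus* BEVs at 10 μg/ml (log2 difference 0.38, 95% interval 0.11 to 0.64), which did not pass after adjustment (edgeR, adjusted p = 0.0961). The log2 difference was 0.23 for MIR22HG (-0.07 to 0.53, adjusted p = 0.485, edgeR) and 0.06 for MIR17HG (-0.12 to 0.25, adjusted p = 0.819). For MIR155HG the EPL and SUC libraries overlapped, and for MIR22HG and MIR17HG all 4 BEV groups overlapped with a neighbour in the order of levels.

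The levels of different genes can be compared per kilobase of merged exon, a length that depends on the annotation. In NC the order of mean levels was MIR9-3HG at 4.24 ± 0.0784 CPM per kilobase (SD, n = 3), MIR155HG at 2.71 ± 0.768, MIR17HG at 0.673 ± 0.0668, MIR22HG at 0.618 ± 0.225 and MIR3142HG at 0. MIR17HG and MIR22HG did not differ beyond their spread. In EUC the order was MIR155HG at 10.1 ± 2.49, MIR3142HG at 7.01 ± 1.29, MIR22HG at 3.51 ± 0.639, MIR17HG at 1.04 ± 0.101 and MIR9-3HG at 0.468 ± 0.0957 CPM per kilobase. MIR9-3HG, first in NC, was last in EUC and in EPL (0.528 ± 0.0766). In SUC and SPL it was at 1.15 ± 0.109 and 0.925 ± 0.0768 CPM per kilobase. MIR17HG had the lowest mean there, at 0.978 ± 0.0918 and 0.910 ± 0.0576. In SPL MIR9-3HG and MIR17HG did not differ beyond their spread, and in SUC their ranges of 1 SD around the mean overlapped. In SPL MIR3142HG at 7.58 ± 0.609 and MIR155HG at 7.49 ± 0.477 CPM per kilobase did not differ beyond their spread. Among all tested genes by CPM, MIR9-3HG went from above 73.1% of them in NC to above 36.8% in EUC, and MIR155HG from above 36.8% to above 54.7%.

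The miRNA genes themselves have rows of their own in the table. Of 11 such rows, 10 had 0 reads in all 15 libraries, which allows up to 0.0128 CPM over the series, and MIR3142 had 7 reads, none of them in NC or SUC. None was tested. The hairpin of MIR146A covers 99 bases of the merged exons of MIR3142HG and that of MIR155 covers 65 bases of MIR155HG. How the counting treated reads on features that overlap was not stated in the sources used.

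The promoters of MIR3142HG and MIR155HG are shown because both genes were higher in every BEV library and each holds 1 match to a motif searched. They run from 250 bases before to 50 after the RefSeq start (GRCh38.p14, plus strand), with the motif in capitals. The window of MIR3142HG is chr5:160468001-160468300 and that of MIR155HG is chr21:25561895-25562194. Both windows lie wholly inside the GENCODE genes, which begin at 160438594 and 25561810. The RefSeq start of MIR3142HG is close to the middle exon of its GENCODE gene.
MIR3142HG promoter: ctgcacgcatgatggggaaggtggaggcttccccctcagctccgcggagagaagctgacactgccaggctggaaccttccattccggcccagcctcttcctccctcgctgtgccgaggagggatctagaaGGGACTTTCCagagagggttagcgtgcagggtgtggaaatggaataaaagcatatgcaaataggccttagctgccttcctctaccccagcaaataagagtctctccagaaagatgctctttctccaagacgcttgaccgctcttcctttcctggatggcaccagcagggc
MIR155HG promoter: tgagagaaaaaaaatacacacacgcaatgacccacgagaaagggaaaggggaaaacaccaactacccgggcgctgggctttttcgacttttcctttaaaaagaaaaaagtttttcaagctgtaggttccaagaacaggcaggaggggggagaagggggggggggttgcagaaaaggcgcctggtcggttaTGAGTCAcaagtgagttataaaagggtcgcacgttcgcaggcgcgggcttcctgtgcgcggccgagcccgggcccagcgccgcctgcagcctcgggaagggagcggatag
The kappa B consensus (GGG, a purine, any base, A or T, a pair of pyrimidines, CC), the AP-1 site TGANTCA and the E-box CACGTG were searched on both strands. MIR3142HG has a match to the kappa B consensus, GGGACTTTCC, that begins at -120 from its RefSeq start, as 5.91% of 35116 promoters of this length have one. MIR155HG has the AP-1 site TGAGTCA at -60 from its RefSeq start, and 7.71% of promoters have such a site. Neither match lies upstream of the GENCODE gene. The windows of MIR17HG, MIR22HG and the 4 starts of MIR9-3HG hold no match to these motifs as spelled here, and the E-box, present in 7.26% of promoters, is in none of the windows of the 5 genes. A match is a description of the sequence only.

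Among 12 transcription factors known to act on these host genes, NFKB1, JUN, JUNB and SPI1 rose in all 4 BEV groups. NFKB1, an NF-kappa B subunit, went from 61.1 CPM in NC to 429.1, 398.8, 326.9 and 354.0 CPM in EUC, EPL, SUC and SPL. JUN, a part of AP-1, went from 38.3 to 311.0, 278.5, 199.8 and 226.7 CPM. FOS rose in EUC, EPL and SPL, with log2 fold changes of 1.23, 1.06 and 1.20, and its value in SUC was 0.94. MYC, a known activator of MIR17HG, was at 208.4 CPM in NC and at 111.1, 101.8, 113.0 and 107.9 CPM in the BEV groups, and passed in EPL at a log2 fold change of -1.03. In EUC 5 of 12 rose and 0 fell, in EPL 5 rose and 1 fell, in SUC 4 rose and 0 fell, and in SPL 5 rose and 0 fell. That is 41.7%, 50%, 33.3% and 41.7% of the list in EUC, EPL, SUC and SPL, beside 15.2%, 14.5%, 9.88% and 11.5% of all tested genes. The median log2 fold change of the list was 0.43, 0.50, 0.49 and 0.48, beside a median between -0.01 and 0.01 over all tested genes. Without 1 library the calls of FOS in EPL (0.99 without EPL2), MYC in EPL (-0.99 without EPL3) and SPI1 in SUC (0.93 without SUC3) fell below the threshold.

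Of 19 proteins that process miRNAs or silence through them, 18 were tested and 1 rose in each BEV group. It was ZC3H12A, the nuclease Regnase-1, which is known to cut inflammatory messenger RNAs and precursor miRNAs. It went from 14.3 CPM in NC to 338.2, 321.5, 315.9 and 333.2 CPM in EUC, EPL, SUC and SPL, a log2 fold change of 4.46 to 4.56 (edgeR, adjusted p between 1.22e-15 and 1.90e-15). AGO4, an Argonaute protein, passed as lower in EUC (log2 fold change -1.06, and -0.93 without EUC3), and its values in EPL, SUC and SPL were -0.85, -0.81 and -0.87. DROSHA, DGCR8, DICER1 and the other members did not pass in any comparison with NC. Of the list 11.1% passed in EUC and 5.56% in each of the other groups, below the 15.2%, 14.5%, 9.88% and 11.5% of all tested genes. The list's median log2 fold change was 0.10, 0.10, 0.03 and 0.09 in the 4 groups.

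Among 24 textbook targets of the hosted miRNAs, all tested, 8 rose and 2 fell in both EUC and EPL, while 6 rose and 2 fell in SUC, and 7 rose and 1 fell in SPL. These are 41.7%, 41.7%, 33.3% and 33.3% of the list, where 15.2%, 14.5%, 9.88% and 11.5% of all tested genes passed. The median log2 fold change of the list was 0.38, 0.35, 0.18 and 0.22. SPI1, NFKB1, PRDM1, CDKN1A and THBS1 were among those that rose in all 4 groups. SOCS1, a target of miR-155 that inhibits cytokine signalling, rose in EUC, EPL and SPL, with log2 fold changes of 1.44, 1.28 and 1.06 and a value of 0.79 in SUC. TAB2, another target of miR-155, rose in EUC and EPL, with 1.14 and 1.16 and values of 0.88 and 0.97 in SUC and SPL. CXCR4, a chemokine receptor and target of miR-146a, fell in all 4 groups, from 85.6 CPM to 26.4, 24.02, 31.3 and 28.9 CPM. HDAC4, a histone deacetylase and target of miR-22, fell in EUC (-1.25), EPL (-1.10) and SUC (-1.01) and was at -0.99 in SPL. Its call in EPL was lost without EPL1 (-0.99) and that in SUC without NC1, NC2 or SUC3 (-0.9938, -0.9965 and -0.8764), and in SPL it passed without NC3 or SPL1 (-1.02 and -1.01).

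Outside the 5 genes, 72 other symbols of the form MIR…HG are in the table, and 22 of them were tested. In EUC 4 of the 22 were higher and 3 lower, in EPL 2 and 3, in SUC 2 and 2, and in SPL 3 and 3. In these groups 31.8%, 22.7%, 18.2% and 27.3% of the 22 passed, against 15.2%, 14.5%, 9.88% and 11.5% of all tested genes. Their median log2 fold change was 0.31, 0.30, 0.12 and 0.28. MIR1915HG fell in all 4 groups, from 51.7 CPM to 14.9, 15.3, 22.4 and 16.98 CPM, and MIR600HG fell in all 4, from 11.5 CPM to between 4.54 and 5.58 CPM. MIRLET7IHG, the host of let-7i, rose in EUC, EPL and SPL, with log2 fold changes of 1.24, 1.35 and 1.29, and was at 0.92 in SUC and at 1.04 there without NC1, past the threshold. MIR222HG rose in SUC (1.14) and MIR210HG, known from hypoxia, rose in EUC (1.87). MIR222HG was at 0.96 in SPL and passed at 1.10 without SPL1. MIR646HG fell in EUC, EPL and SPL, with log2 fold changes of -1.83, -1.38 and -1.32, the last no longer passing without SPL2 (-1.19, adjusted p = 0.0104, edgeR). MIR124-1HG rose in EUC (1.09) and SPL (1.18). Without NC1 both calls were lost on adjusted p (edgeR, 1.01 with adjusted p = 0.0151 and 1.11 with adjusted p = 0.0107). Each was also lost without 1 library of its own group. These were 0.68 without EUC1 (edgeR, adjusted p = 0.0205) and 1.05 without SPL1 (edgeR, adjusted p = 0.0112). In EPL the gene was at 0.90 and passed at 1.03 without EPL3.

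**Figure D4:**
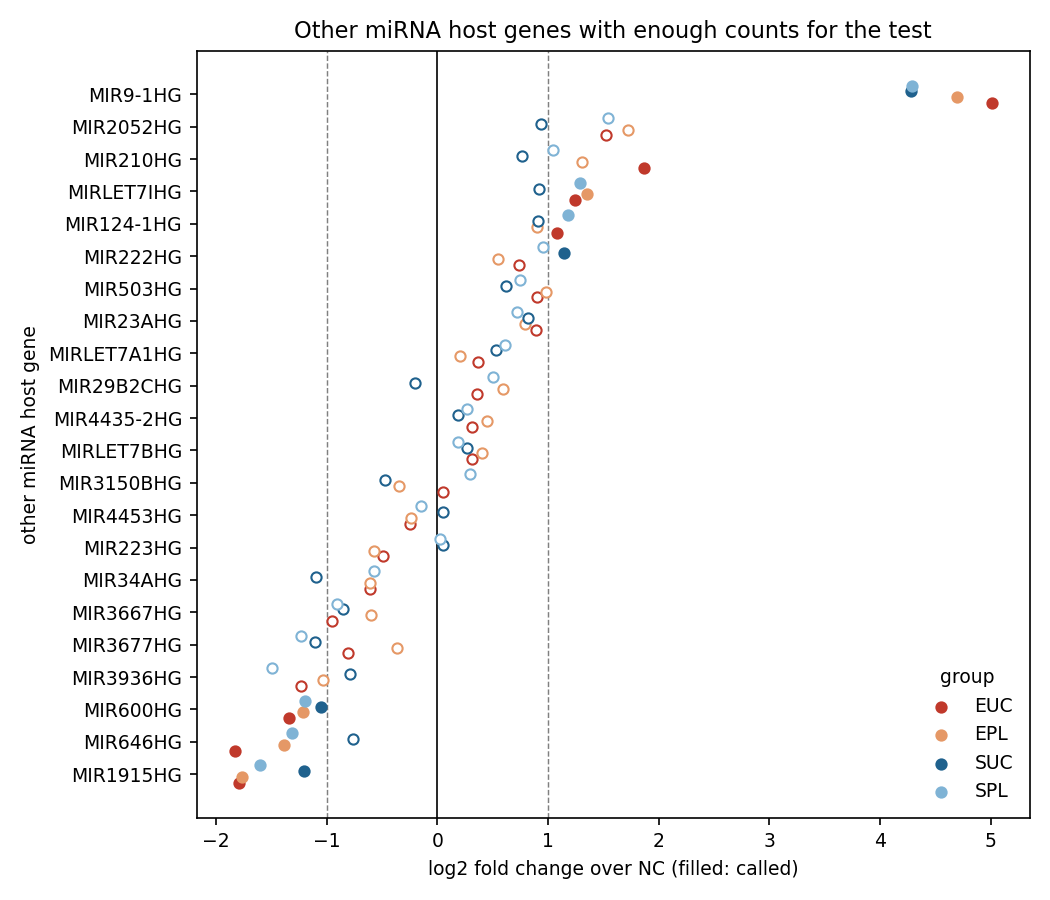
Log2 fold change over NC of the 22 other miRNA host genes that were tested, 1 row per gene and 1 point per BEV group, ordered by their mean. MIR9-1HG stands at the top with values of 4.29 to 5.01, and MIR1915HG is among the lowest with -1.80 to -1.21.

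MIR9-1HG, the host of another copy of miR-9, rose in all 4 groups, while MIR9-3HG was lower in all 4. Its levels were 0.0640, 0.0588 and 0.417 CPM in NC, from 1, 1 and 7 reads. They were 4.42, 6.98 and 6.97 CPM in EUC and 4.72, 6.12 and 3.93 CPM in EPL. They were 4.10, 3.44 and 3.57 CPM in SUC and 3.71, 3.99 and 3.45 CPM in SPL. The libraries of all BEV groups lay far above those of NC, where NC3 alone held 7 of the 9 reads. Every BEV library lay above every NC library for 17.5% of all tested genes. The log2 fold change was 5.01 ± 0.398 (SE) in EUC (edgeR, adjusted p = 1.78e-08), 4.70 ± 0.407 in EPL (adjusted p = 5.69e-08), 4.29 ± 0.421 in SUC (adjusted p = 4.17e-07) and 4.29 ± 0.420 in SPL (adjusted p = 3.42e-07). Without NC3, when NC held 2 reads, the fitted values were 6.47 in EUC, 6.15 in EPL, 5.74 in SUC and, for SPL, 5.75, and they depend on the prior count of the fit.

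**Figure D5:**
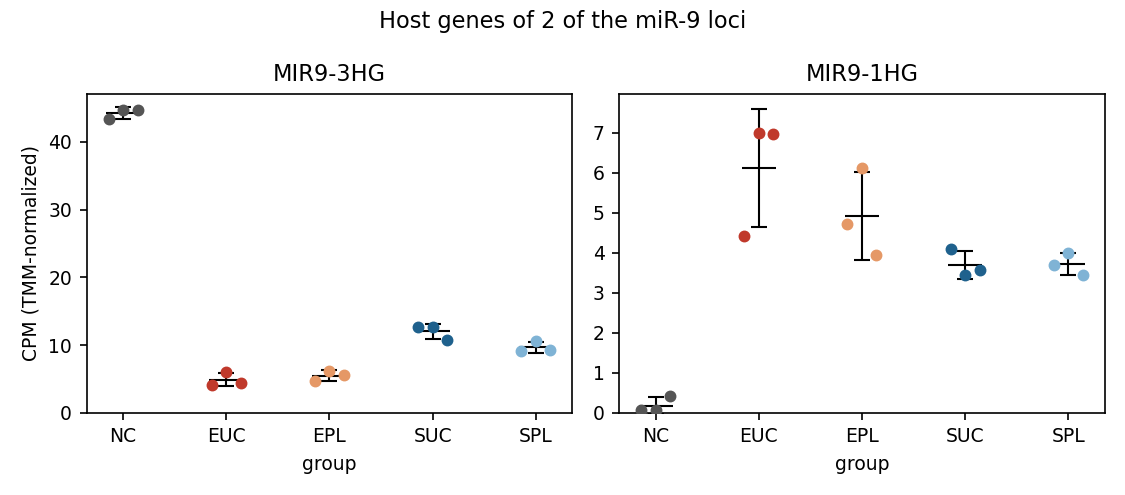
CPM of MIR9-3HG and MIR9-1HG in each library (points) with the group mean and SD (lines), 3 libraries per group, each panel with its own scale. MIR9-3HG was at 43.3 to 44.8 CPM in NC and at most 12.7 CPM in BEV groups, and MIR9-1HG was at most 0.417 CPM in NC and at least 3.44 CPM in BEV groups.

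The hairpins of the miR-9 genes are shown because they hold the same mature miRNA, so that a mature miR-9-5p could not be assigned to a locus by its sequence. They are the RefSeq hairpins of MIR9-1 (chr1:156420341-156420429, minus strand), MIR9-2 (chr5:88666853-88666939, minus strand) and MIR9-3 (chr15:89368017-89368106, plus strand) on GRCh38.p14, with miR-9-5p in capitals.
MIR9-1: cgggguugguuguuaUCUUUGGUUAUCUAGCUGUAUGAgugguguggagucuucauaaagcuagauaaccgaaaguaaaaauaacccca
MIR9-2: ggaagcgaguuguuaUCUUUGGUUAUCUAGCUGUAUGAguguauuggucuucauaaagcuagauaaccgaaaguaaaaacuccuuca
MIR9-3: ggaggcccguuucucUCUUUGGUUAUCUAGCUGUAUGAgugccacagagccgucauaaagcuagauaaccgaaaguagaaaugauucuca
They are 89, 87 and 90 bases long, and they differ outside the mature sequence.

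The genes whose pattern over the 15 libraries was most like that of each host gene were found by the root mean square difference of log2 CPM after each gene's own mean was subtracted. For MIR155HG they were WTAP (0.155), a part of the RNA methylation complex, HERC5 (0.175), a ligase for the interferon-induced protein ISG15, and CHMP5 (0.182), a membrane-sorting protein. For MIR22HG they were ME1 (0.218), the cytosolic malic enzyme, ACVR2A (0.220), an activin receptor, and IFI16 (0.224), a DNA sensor. Among the patterns nearest to MIR17HG were those of RRM2 (0.101), a subunit of ribonucleotide reductase, and UFM1 (0.102), a ubiquitin-like modifier. For MIR3142HG they were the chemokine CCL2 (0.242), IL4I1 (0.266) and the adhesion molecule ICAM1 (0.290), but with a prior count of 0.5 in place of 2 they were CCL4, EBI3 and SLAMF7, with 0 of 3 in common. MIR9-3HG was most like BMP8B (0.194), a growth factor gene that went from 616.4 CPM in NC to 76.3, 79.9, 149.6 and 116.5 CPM in EUC, EPL, SUC and SPL, followed by the non-coding genes ENSG00000254006 (0.241) and ENSG00000227706 (0.249).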

How the data were processed

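RNA of THP-1 cells was sequenced by the authors in 15 libraries, assigned to 5 groups by their titles. They checked reads with FastQC 0.11.5, aligned them to hg38 with HISAT2 2.1.0 and deposited raw read counts per Ensembl gene. The submitters' processing notes also name StringTie 1.3.3b, featureCounts and DESeq 1.28.0. Of the counting, strand setting and annotation release are not stated in the sources used.

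The counts were analysed with edgeR 4.0.16 in R 4.3.3 (filterByExpr, 17198 of 60286 genes kept, TMM, 1 quasi-likelihood fit of all libraries, Benjamini-Hochberg adjustment over all tested genes) and tested on simulated data. Calls needed adjusted p ≤ 0.01 and an absolute log2 fold change ≥ 1, the study's thresholds, whose tool DESeq2 (1.42.0 here) was an alternative. Other alternatives changed size factors, filter, threshold, libraries and replicate block. Log2 CPM used a prior count of 2. Labels do not tie libraries to separate cultures, so p-values measure only the spread between these libraries, which may be technical. Intervals from 0 counts cover counting error only.

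Members and gene lists were chosen with earlier results of these data known. Named are the 5 host genes, the 3 genes most like each (mean CPM of at least 1) and genes of the lists called against NC. Others (DROSHA, DGCR8, DICER1, MIR223HG, cell type markers) were named with their values known. Some genes that this rule names are not reported here.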

Additional observations from a re-analysis of the deposited data

Results flagged for a closer look

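THBS1, a target of the miR-17-92 cluster that encodes the matrix protein thrombospondin-1, responded differently to the BEVs of both species. Its mean level was 0.630 CPM in NC, rose to 98.0 and 81.3 CPM with *E. coli* BEVs (EUC and EPL) and to 26.9 and 52.3 CPM with *S. aureus* BEVs (SUC and SPL). The 6 *E. coli* BEV libraries held 1195 to 1769 reads and the 6 *S. aureus* BEV libraries 345 to 925. The mean log2 level was 1.25 higher with *E. coli* than with *S. aureus* BEVs (edgeR, adjusted p = 9.76e-07), with the dose changing together with the species. The log2 difference between isolation methods was -0.27 for EPL against EUC (edgeR, adjusted p = 0.947) and 0.96 for SPL against SUC (adjusted p = 0.0194). The difference of these between the species was -1.23, which did not pass in edgeR (adjusted p = 0.0717) and passed in DESeq2 (-1.24, adjusted p = 0.000254).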

How the results depend on the processing

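MIR155HG and MIR22HG kept their calls in each of the 4 comparisons with NC under all 12 alternatives, with log2 fold changes of 1.68 to 2.15 and 2.25 to 2.76 in EUC and of 1.32 to 1.73 and 2.05 to 2.56 in SPL. MIR17HG passed in EUC, EPL and SUC when no fold threshold was set. Without that threshold 5251 genes were called in EUC, 5026 in EPL, 3697 in SUC, 4114 in SPL and 665 between the species, against 2610, 2498, 1700, 1972 and 118, and 11, 9 and 7 of the other host genes in EUC, EPL and SUC against 7, 5 and 4. For SPL against SUC 2 genes were called by DESeq2, without the filter and in a fit of only the groups compared, against 1. For the difference of the isolation methods between the species 3 were called by DESeq2 and 4 without the filter, against 0. HDAC4 in SUC (-0.9962) missed the fold threshold without the filter, and MIR124-1HG in EUC missed at an adjusted p of 0.02 in edgeR's fit of only the groups compared. The mean of MIR9-3HG in NC was 47.5 CPM with unnormalized library sizes, against 44.3, and 0 of 3 genes most like MIR3142HG were the same with a prior count of 0.5.

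With each library left out in turn, 0 to 1 host genes lay past both thresholds between the species (0 without EPL1). The gene is MIR9-3HG, which was picked on this contrast, so that count is a description and no sign of stability. The calls were 1 to 2 genes for SPL against SUC and 0 to 1 genes for the difference of methods between the species (the higher count without SUC1 in both). The log2 difference of EPL and EUC ranged from -0.21 to 0.14 for MIR155HG, from -0.23 to 0.034 for MIR3142HG and from -0.24 to 0.0206 for MIR22HG. That of SPL and SUC ranged from -0.13 to 0.0781 for MIR155HG, and the contrast of the method effect between species ranged from -0.18 to 0.18 for MIR155HG and from -0.16 to 0.0284 for MIR17HG. These values change sign around 0 and none was called. The cause was not tested.

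Whether the replicate numbers pair the libraries was not settled by these data. Same-numbered libraries deviated from their group means with correlations of -0.452 to 0.525 over 30 pairs (7 over 0.1), and 9 of 15 libraries correlated best with their own number. A fit with the replicate block called 2553, 2449, 1677 and 1938 genes in EUC, EPL, SUC and SPL, with MIR155HG and MIR22HG among them in each, and 116 genes between the species. Depth limits the lower end, since MIR9-1HG rested on 9 reads in NC and MIR3142HG on 0.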

Other observations

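MIR223HG, the host of miR-223, a miRNA known from granulocytes and monocytes, was named after its values were seen. Its mean level was 46.9 ± 1.72 CPM (SD, n = 3) in NC, 33.3 ± 5.47 CPM in EUC and 31.6 ± 4.39 CPM in EPL, and 48.7 ± 4.72 CPM in SUC and 47.9 ± 3.77 CPM in SPL. The log2 difference between *E. coli* and *S. aureus* BEVs was -0.57 ± 0.0875 (SE). Against NC it was -0.49 in EUC and -0.57 in EPL, and 0.05 and 0.03 in SUC and SPL. These values are a description without a test.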
